A study of Homo sapiens with 8 samples.

Results

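The transcripts of 35 genes of glycolysis and of the hypoxia response were followed among the 22504 genes measured in U2OS cells. U2OS is an established human osteosarcoma line. A gene was a member if its symbol in the expression table equalled that of a listed glycolytic enzyme, glucose or lactate transporter or target of the hypoxia-inducible factor, HIF. This rule uses no measured value, although the list was drawn up with earlier results of these data known. All 35 were found: 16 glycolytic enzymes, 3 transporters, 3 regulators of glycolytic flux, 12 other HIF targets and HIF1A itself. Cells carrying the actin mutant G13R were set against control cells carrying GFP. Normal growth and serum stimulation were the 2 conditions, and each of the 4 combinations had 2 libraries. Poly(A) RNA was sequenced. The labels do not name the actin gene that carries G13R, the vector or clones used, how long serum was applied or whether it was withdrawn before. Nothing in them ties the 2 libraries of a group to separate cultures. The p-values therefore measure only how far these libraries differ, and that spread may be technical. Values are FPKM, fragments scaled to transcript length and to the mapped total, which allow levels of different genes to be set side by side.

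Glycolysis splits glucose into pyruvate, and lactate dehydrogenase turns pyruvate into lactate, which restores the cofactor that the pathway needs. In low oxygen the HIF alpha subunit escapes breakdown and, with its partner ARNT, raises transcription of many of these enzymes, of glucose transporters and of genes for pH control, blood vessel growth and mitophagy. Growth factor signalling and MYC act on several of the same promoters, and proliferating tumour cells often run glycolysis at a high rate also when oxygen is present.

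HIF binds DNA at a short core, ACGTG or GCGTG, and ACGTG is also the inner part of the E-box CACGTG, which MYC and other factors bind. The 250 bases upstream of 5 members' transcription starts are printed because these members kept their serum response in GFP cells under every alternative setting tried, 4 of them lower and PFKFB4 higher. They are RefSeq sequences of GRCh38.p14, a different build from the hg19 of the gene positions given later, and are written 5′ to 3′ on the gene's strand in lower case. Capitals mark ACGTG on either strand, with CACGTG shown where both strands match. Where a gene had several start windows, the one with the most matches is shown.
LDHA, chr11:18394313-18394562, plus strand: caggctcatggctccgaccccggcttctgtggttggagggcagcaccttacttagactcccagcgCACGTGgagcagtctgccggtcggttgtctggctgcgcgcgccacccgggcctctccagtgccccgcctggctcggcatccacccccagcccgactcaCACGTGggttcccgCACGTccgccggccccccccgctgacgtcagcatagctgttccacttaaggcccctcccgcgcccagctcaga
HK2, chr2:74834920-74835169, plus strand: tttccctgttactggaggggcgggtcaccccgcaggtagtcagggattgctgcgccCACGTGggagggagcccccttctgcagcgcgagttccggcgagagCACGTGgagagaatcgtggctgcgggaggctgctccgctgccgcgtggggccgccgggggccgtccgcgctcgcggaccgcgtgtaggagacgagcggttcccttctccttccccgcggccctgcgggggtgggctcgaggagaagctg
PFKFB3, chr10:6202682-6202931, plus strand: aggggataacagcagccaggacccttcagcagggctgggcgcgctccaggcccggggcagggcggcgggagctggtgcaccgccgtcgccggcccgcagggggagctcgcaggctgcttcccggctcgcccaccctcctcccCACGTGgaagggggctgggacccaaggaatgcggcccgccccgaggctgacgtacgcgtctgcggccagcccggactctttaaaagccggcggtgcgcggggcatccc
PGAM1, chr10:97427568-97427817, plus strand: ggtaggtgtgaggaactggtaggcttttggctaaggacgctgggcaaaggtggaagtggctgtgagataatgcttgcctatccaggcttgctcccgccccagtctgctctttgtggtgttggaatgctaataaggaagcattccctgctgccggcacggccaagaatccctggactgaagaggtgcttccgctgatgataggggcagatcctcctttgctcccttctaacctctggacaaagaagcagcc
PFKFB4, chr3:48556804-48557053, minus strand: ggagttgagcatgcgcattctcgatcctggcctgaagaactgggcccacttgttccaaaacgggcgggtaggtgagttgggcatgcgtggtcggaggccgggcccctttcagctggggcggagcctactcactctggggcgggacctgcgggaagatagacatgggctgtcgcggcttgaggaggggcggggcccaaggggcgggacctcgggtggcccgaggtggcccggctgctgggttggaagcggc

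LDHA held 3 separate ACGTG sites in this window, 2 of them as CACGTG. HK2 held 2, both CACGTG, and PFKFB3 held 1, also CACGTG. PGAM1 and PFKFB4 held none in the windows printed. RefSeq windows were found for 31 of the 35 members, 59 windows in all, and not for SLC2A3, NDRG1, VEGFA and BNIP3L. ACGTG on either strand was in 22 of the 59 windows, 37.3%, against 18.5% of all 35116 windows of that length. GCGTG was in 32.2% of members' windows and in 32.2% of all windows. CACGTG, which contains ACGTG on both strands, was in 13.6% of members' windows and in 6.34% of all. Of the 14 members that fell with serum in GFP cells, 10 had a window with ACGTG. So had 8 of 13 matched members that did not pass the test and 0 of 3 matched members that rose. Only 3 of the 6 members that rose were matched, PFKL, PFKFB4 and P4HA2, each with 1 window. Members that fell had 1 to 7 windows, and a gene counted if any of its windows matched. Whether ACGTG goes with the direction of the response was not tested. In G13R cells ACGTG was in 2 of 5 members that fell and 2 of 3 matched members that rose. It was also in 14 of 22 matched members that were not called there. These counts by gene have no share of all genes beside them. A match describes the letters only, and binding was not measured.

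The library sums ran from 496166 to 559496 FPKM, and 12065 to 12568 genes reached 1 FPKM. ACTB made up 0.48 to 0.497% of the sum in the GFP libraries and 1.57 to 2.27% in the G13R libraries, so all 4 libraries labelled G13R stood above all 4 labelled GFP. This value can include reads of the introduced mutant. Of 8 osteoblast lineage markers, 5 reached 1 FPKM in at least 2 libraries (RUNX2, ALPL, BGLAP, COL1A1 and SPARC), with a summed level of 429 to 823 FPKM. Markers of other cell types were lower: 3 of 5 epithelial markers (3.42 to 8.11 FPKM summed), 1 of 5 leukocyte markers (1.95 to 5.98 FPKM), 3 of 4 neural markers (19.5 to 26.6 FPKM) and 0 of 4 endothelial markers (0.304 to 0.892 FPKM) reached that level. In bulk RNA, fewer cells that express a gene and less RNA per cell cannot be told apart. The GFP serum pair was the least alike: on the log2(FPKM + 1) scale 186 genes were over 2-fold apart, and 87 to 102 genes were in each remaining pair, with 0 members among them in any pair.

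The members ranged from among the most abundant transcripts of the cell to barely measured ones. GAPDH, the triose phosphate dehydrogenase, had a mean over the 8 libraries of 3564 FPKM and stood at rank 3 of all genes, and ENO1, the main enolase, had 1694 FPKM. LDHA followed with 850 FPKM and ALDOA with 798.2 FPKM. At the other end, EGLN3, an oxygen-dependent hydroxylase that marks HIF for breakdown, had 0.936 FPKM. CA9, a carbonic anhydrase widely used as a marker of hypoxia, was listed at 0 in 6 of 8 libraries, at 0.506 FPKM in GFP serum replicate 1 and at 0.0565 FPKM in G13R normal replicate 2. CA9 was therefore the only member that did not reach 1 FPKM in 2 libraries, and 34 members were tested.

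**Figure D1:**
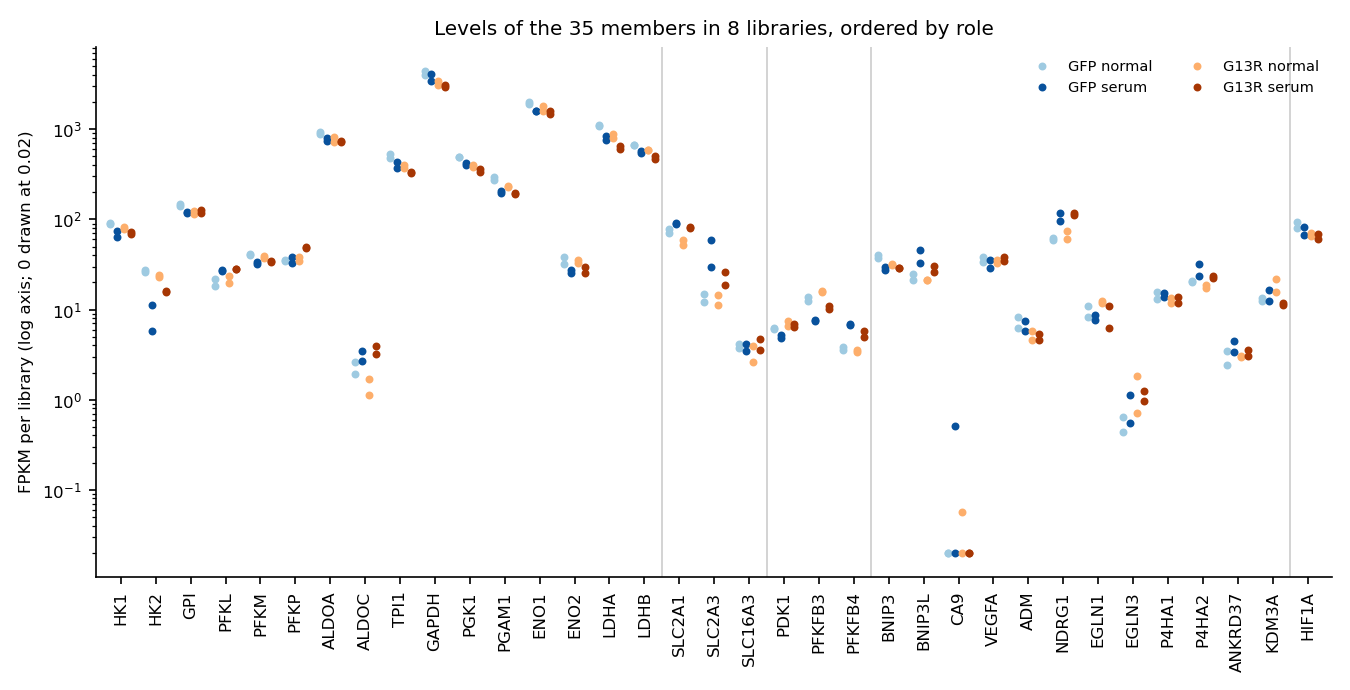
Level of each of the 35 members in each of the 8 libraries, in FPKM on a vertical log axis, ordered by role along the horizontal axis and coloured by group, with each point a library. GAPDH and ENO1 lie highest and CA9 lowest, with listed zeros drawn at 0.02 FPKM near the foot of the vertical axis.

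In GFP cells, serum was followed by lower levels of most glycolytic enzymes and by higher levels of a few transporter and HIF target genes. A gene was called if the adjusted p of limma's moderated test on log2(FPKM + 1) was under 0.05 over all 12996 genes that passed the filter. Of 34 members tested, 14 fell and 6 rose, against 15.7% of all genes falling, 14.9% rising and 30.7% changing in either direction. The members' median log2 difference was -0.18, and that of all genes tested was 0.01. In G13R cells 5 of the 34 fell and 4 rose, against 4.62%, 8.26% and 12.9% of all genes, with a median of -0.06 among members and 0.04 among all genes. When each library was left out in turn, the GFP count ranged from 8 to 16 and the G13R count from 1 to 4. GFP calls numbered 8 with GFP normal replicate 1 removed and 11 with GFP normal replicate 2 removed, and 16 and 15 when the first or the second serum library was removed. G13R calls numbered 2 without G13R normal replicate 1, 4 without G13R normal replicate 2, 1 without G13R serum replicate 1 and 2 without G13R serum replicate 2. The 7 members called under all alternatives in GFP cells were HK2, PGAM1, LDHA, PFKFB3, PFKFB4, SLC2A3 and NDRG1, and the only such member in G13R cells was NDRG1.

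**Figure D2:**
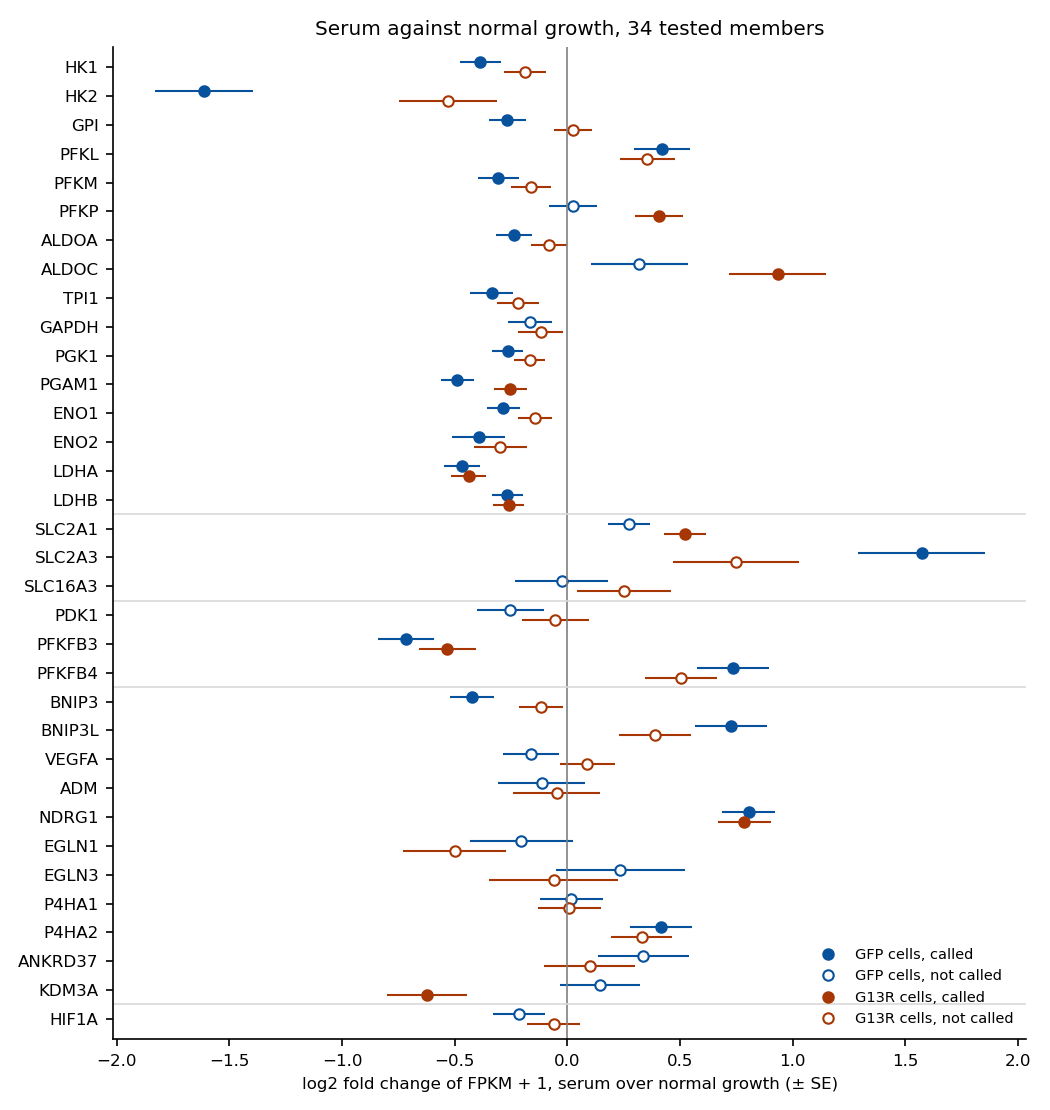
Serum response of each of the 34 members tested, as the log2 difference in log2(FPKM + 1) between serum and normal growth, with bars for the standard error, in GFP and G13R cells. Filled symbols passed limma's test at an adjusted p of 0.05, and HK2 and SLC2A3 in GFP cells lie farthest from 0 in either direction.

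Hexokinase commits glucose to the cell by phosphorylating it, and HK2 is its inducible form in many tumour lines. HK2 (chromosome 2, 75061108 to 75120486 in hg19) was at 27.1 and 26.1 FPKM in GFP normal growth, at 11.1 and 5.73 after serum, at 23.0 and 24.0 in G13R normal growth and at 16.1 and 15.8 after serum. All 4 serum libraries lay below all 4 normal growth libraries, and the GFP serum libraries were the lowest and differed most from each other. The fall in GFP cells was -1.61 ± 0.22 on the log2 scale (standard error, 2 libraries a group, limma adjusted p = 0.000658), the largest among the members. Leaving out GFP serum replicate 2 gave -1.19, and leaving out replicate 1 gave -2.04. In G13R cells the log2 difference was -0.53 ± 0.22 with a limma adjusted p of 0.137. HK1, the constitutive form, ran at 89.2 and 92.1 FPKM in GFP normal growth and 74.3 and 64.4 after serum, a fall of 0.39 on the log2 scale (limma adjusted p = 0.0114). It was 77.9 and 83.3 FPKM in G13R normal growth and 69.0 and 72.3 after serum, without passing the test. HK2's share of the summed hexokinase level was 22.1 to 23.3% in GFP normal growth and 13.01 and 8.18% after serum. In G13R cells it was 22.4 to 22.8% and 18.9 and 17.95%, so both comparisons had shares that did not overlap.

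Lactate dehydrogenase closes the fermentative route, and LDHA, the muscle-type subunit, is a classical HIF and MYC target. LDHA (chromosome 11, 18415935 to 18429972 in hg19) was at 1096 and 1127 FPKM in GFP normal growth and 770 and 839 after serum, and at 811 and 897 in G13R normal growth and 609 and 651 after serum. In each kind of cell both serum libraries lay below both normal growth libraries. The fall was -0.47 ± 0.08 in GFP cells (limma adjusted p = 0.00196) and -0.44 ± 0.08 in G13R cells (limma adjusted p = 0.00705). LDHB, the heart-type subunit, fell by 0.27 on the log2 scale in GFP cells and by 0.26 in G13R cells, from 666 and 673 to 571 and 543 FPKM and from 584 and 596 to 474 and 511 FPKM. Summed over both subunits, the serum level was 0.764 times the normal growth level in GFP cells and 0.777 times in G13R cells. Only hexokinase, at 0.663, and phosphoglycerate mutase, at 0.712, had a lower ratio among the 10 steps in GFP cells. No step did in G13R cells. These 10 steps count lactate dehydrogenase and leave out pyruvate kinase, whose gene PKM was not a member. Mean PKM was 1576 FPKM in normal growth and 1636 after serum in GFP cells, and 1334 and 1442 in G13R cells.

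PGAM1, phosphoglycerate mutase, acts between the payoff steps of lower glycolysis. Its level (chromosome 10, 99185917 to 99193198 in hg19) was 277 and 292 FPKM in GFP normal growth, 197 and 208 after serum, 227 and 236 in G13R normal growth and 191 and 197 after serum. Serum libraries lay below normal growth libraries in both kinds of cell. The log2 difference was -0.49 ± 0.07 in GFP cells (limma adjusted p = 0.00107) and -0.25 ± 0.07 in G13R cells (limma adjusted p = 0.0464).

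Apart from phosphofructokinase, 6 of the remaining enzymes fell in GFP cells and were not called in G13R cells. The share of all genes with that pattern is not given, and limma called the difference of the responses for none of the 6. Log2 differences in G13R cells were -0.22 for TPI1, -0.17 for PGK1, -0.14 for ENO1 and -0.30 for ENO2, without overlap. They were -0.08 for ALDOA and 0.03 for GPI, with overlapping libraries. In GFP cells TPI1, the triose phosphate isomerase, fell by 0.34, PGK1, the first ATP-yielding kinase, fell by 0.27, and ENO1 fell by 0.28 on the log2 scale. ENO2, the neuronal enolase, fell by 0.39, GPI, the glucose phosphate isomerase, fell by 0.27, and ALDOA, the main aldolase, fell by 0.24, all 6 with limma adjusted p-values between 0.0167 and 0.0478. GAPDH was 3995 and 4431 FPKM in GFP normal growth and 3417 and 4122 after serum, with overlapping libraries, and did not pass the test in either kind of cell. ALDOC, a minor aldolase form, was at 1.90 and 2.61 FPKM against 2.68 and 3.44 after serum in GFP cells, without a call. It rose in G13R cells, from 1.12 and 1.67 to 3.89 and 3.23 FPKM, by 0.93 ± 0.22 on the log2 scale (limma adjusted p = 0.0211), and it supplied at most 0.533% of the summed aldolase level in any library. Members such as GAPDH, PGK1, TPI1, PGAM1, ENO1 and LDHA have processed pseudogenes, so reads shared with those copies make their values less certain.

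Phosphofructokinase is the main control point of the pathway, and its 3 forms did not move together. PFKL, the liver form, was at 18.1 and 21.7 FPKM in GFP normal growth and 27.2 and 26.5 after serum, a rise of 0.42 ± 0.12 on the log2 scale (limma adjusted p = 0.0275) and the only call upward among the 16 enzymes in GFP cells. PFKM, the muscle form, fell by 0.31 on the log2 scale there, from 41.3 and 40.4 to 33.4 and 32.4 FPKM. PFKP, the platelet form, did not pass the test in GFP cells, at 35.3 and 34.5 against 38.7 and 32.6 FPKM, with overlapping libraries. In G13R cells PFKP rose from 37.8 and 34.8 to 47.6 and 49.3 FPKM, by 0.41 ± 0.11 (limma adjusted p = 0.0339). The sum of the 3 forms after serum was 0.997 times the normal growth level in GFP cells, with overlapping libraries, and 1.15 times in G13R cells, without overlap. The PFKM share of that sum went from 43.6 and 41.9% to 33.6 and 35.4% in GFP cells and from 39.2 and 40.2% to 31.2 and 30.4% in G13R cells.

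**Figure D3:**
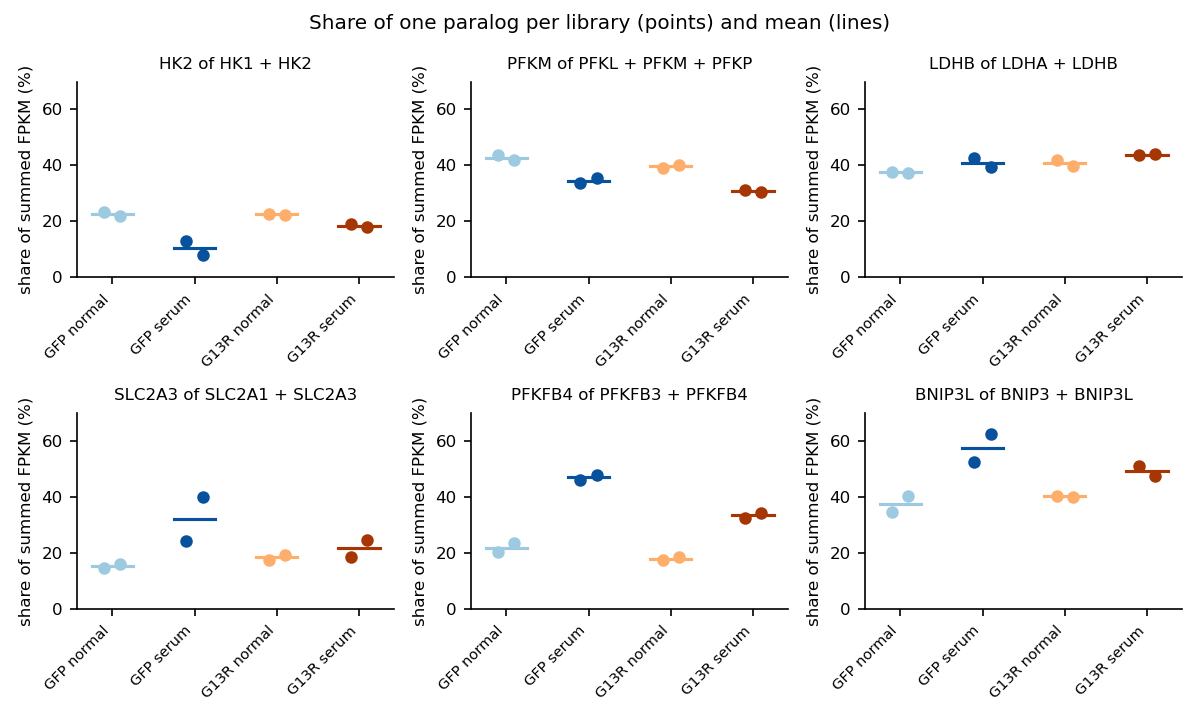
Share of 1 paralog in the summed FPKM of its family, in percent, by group for 6 families, with points for the libraries and lines for the mean. The shares of HK2 and PFKM are lower after serum, and those of PFKFB4 and BNIP3L are higher, without overlap between serum and normal growth libraries in either kind of cell.

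The 16 enzymes together made up 1.91 ± 0.05% of the FPKM sum in GFP normal growth (SD, n = 2) and 1.68 ± 0.05% after serum. In G13R cells they made up 1.69 ± 0.06% and 1.51 ± 0.04%. PKM was not a member and is not in these shares. Among the enzymes, 12 of 16 fell and 1 rose in GFP cells, and 3 fell and 2 rose in G13R cells, with medians of -0.28 and -0.16 on the log2 scale.

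Among the 3 transporters 1 rose in each kind of cell and 0 fell. SLC2A3, the high-affinity glucose transporter GLUT3, was at 12.04 and 14.95 FPKM in GFP normal growth, 29.6 and 59.3 after serum, 11.2 and 14.3 in G13R normal growth and 18.5 and 26.1 after serum. All 4 serum libraries were above all 4 normal growth libraries, and GFP serum replicate 2 was the highest. The rise was 1.57 ± 0.28 on the log2 scale in GFP cells (limma adjusted p = 0.00268) and 1.08 without GFP serum replicate 2. In G13R cells it was 0.75 ± 0.28 with an adjusted p of 0.107 by limma. SLC2A1, the widespread transporter GLUT1, was at 70.8 and 79.0 FPKM in GFP normal growth against 92.0 and 89.3 after serum. This difference of 0.27 on the log2 scale missed the threshold (limma adjusted p = 0.0514). In G13R cells SLC2A1 rose from 52.4 and 59.6 to 82.1 and 79.3 FPKM, by 0.52 ± 0.09 (limma adjusted p = 0.00754). SLC2A3's share of the level of both transporters was 14.5 and 15.9% in GFP normal growth and 24.3 and 39.9% after serum, while the G13R shares of 17.6 and 19.4% and of 18.4 and 24.7% overlapped. SLC16A3, the lactate exporter MCT4, stayed between 2.65 and 4.66 FPKM in all libraries and passed no test.

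PFKFB enzymes make and remove the activator of phosphofructokinase, and PFKFB3 is the form with the strongest kinase activity. PFKFB3 (chromosome 10, 6186881 to 6277495 in hg19) was at 13.9 and 12.6 FPKM in GFP normal growth, 7.74 and 7.55 after serum, 16.0 and 15.5 in G13R normal growth and 10.2 and 10.95 after serum. It was lower after serum in both kinds of cell, without overlap, by 0.72 and by 0.53 on the log2 scale, with limma adjusted p-values of 0.00246 and 0.0224. PFKFB4 was at 3.55 and 3.83 FPKM in GFP normal growth and 6.65 and 6.98 after serum, a rise of 0.74 ± 0.16 (limma adjusted p = 0.00715). It was at 3.38 and 3.53 FPKM in G13R normal growth and 4.90 and 5.76 after serum, a difference of 0.50 with an adjusted p of 0.0658 by limma. The PFKFB4 share of the sum of the pair moved from 20.4 and 23.4% to 46.2 and 48.0% in GFP cells and from 17.5 and 18.5% to 32.4 and 34.5% in G13R cells. PDK1, the kinase that shuts pyruvate dehydrogenase, lay between 4.804 and 7.396 FPKM and was not called in either serum comparison.

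**Figure D4:**
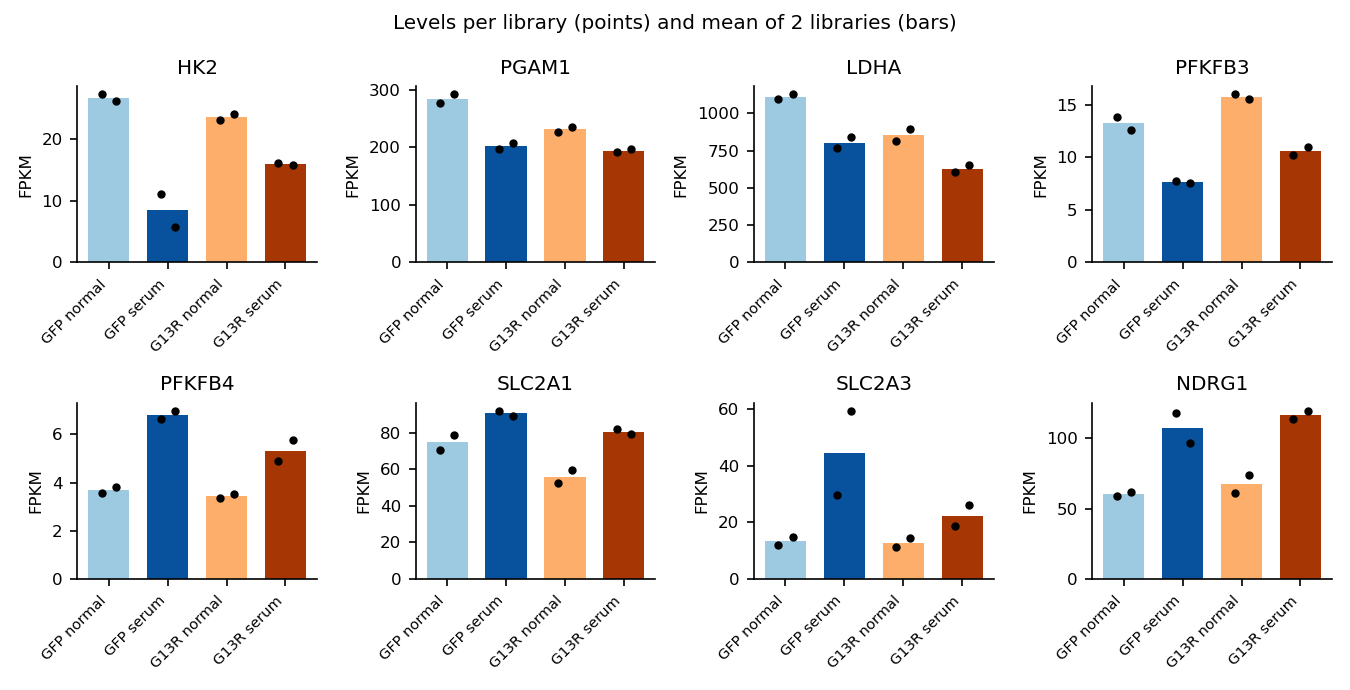
FPKM of 8 members by group, with points for the libraries and bars for the mean of 2 libraries, on axes that start at 0. HK2, LDHA, PGAM1 and PFKFB3 lie lower after serum and SLC2A1, SLC2A3, PFKFB4 and NDRG1 lie higher in both kinds of cell, although not every difference passed the test.

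The other HIF targets did not move as a group. NDRG1, a stress and differentiation response gene, was at 59.1 and 62.0 FPKM in GFP normal growth and 118 and 96.4 after serum, and at 61.0 and 73.6 in G13R normal growth and 113 and 119 after serum. It was higher after serum without overlap in both kinds of cell, by 0.81 ± 0.12 (limma adjusted p = 0.000975) and by 0.79 ± 0.12 (limma adjusted p = 0.0031). The paired mitophagy receptors BNIP3 and BNIP3L went opposite ways in GFP cells: BNIP3 fell by 0.42 on the log2 scale, from 39.9 and 37.1 to 29.6 and 27.3 FPKM, and BNIP3L rose by 0.73 on that scale, from 21.1 and 24.9 to 32.6 and 45.9 FPKM. Neither was called in G13R cells. P4HA2, a collagen prolyl hydroxylase subunit, rose by 0.42 in GFP cells (20.46 and 20.47 to 23.8 and 32.1 FPKM, limma adjusted p = 0.0431), and by 0.21 with an adjusted p of 0.266 when GFP serum replicate 2 was left out.

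KDM3A, a histone demethylase, fell in G13R cells from 21.6 and 15.5 to 11.1 and 11.97 FPKM, by 0.62 on the log2 scale (limma adjusted p = 0.0454), and was at 12.4 and 13.4 against 12.5 and 16.6 FPKM in GFP cells without a call. Without G13R normal replicate 1 the fall was 0.39 with an adjusted p of 0.271. VEGFA, the vessel growth factor, ran from 29.1 to 38.7 FPKM over the 8 libraries, ADM, a vasodilator peptide, from 4.63 to 8.30, and P4HA1 from 11.9 to 15.6. EGLN1, the main oxygen sensor for HIF, ran from 6.17 to 12.4 FPKM, EGLN3 from 0.433 to 1.83, and ANKRD37 from 2.43 to 4.52. None of these 6 was called in either serum comparison. HIF1A was at 80.3 and 93.0 FPKM in GFP normal growth and 67.7 and 81.7 after serum, with overlap, and at 70.3 and 65.5 in G13R normal growth and 61.2 and 69.2 after serum, and was not called.

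Leaving out 1 library ended several of these calls. The share of all genes that lost calls in the same way is not given. Whether members lost calls more often than other genes therefore cannot be told. In GFP cells 12 calls were lost without GFP normal replicate 1 (HK1, ENO1, ENO2, GPI, ALDOA, LDHB, PGK1, PFKL, PFKM, BNIP3, BNIP3L and P4HA2, limma adjusted p 0.0514 to 0.208). Without GFP normal replicate 2, 9 were lost (ALDOA, ENO1, GPI, HK1, LDHB, P4HA2, PFKM, PGK1 and TPI1, limma adjusted p 0.0676 to 0.219). Without GFP serum replicate 1, ALDOA, ENO2, PFKL and TPI1 were lost, and without GFP serum replicate 2, GPI, HK1, LDHB, P4HA2, PFKL and PFKM, with limma adjusted p-values up to 0.13 and 0.266. In G13R cells LDHA lost its call without G13R normal replicate 2 and without G13R serum replicate 1 (limma adjusted p = 0.0594 and 0.078). PFKFB3, PFKP, LDHB and PGAM1 lost theirs without each of the 4 G13R libraries, ALDOC and SLC2A1 without G13R normal replicate 1 and without either serum library, and KDM3A without the same 3. The limma adjusted p of the calls lost in G13R cells lay between 0.0541 and 0.271.

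Calls in both kinds of cell were compared over the 34 members. LDHA, LDHB, PGAM1 and PFKFB3 fell in both, NDRG1 rose in both, and 0 members were called in opposite directions. Across the 34 members the log2 responses correlated with a Pearson's r of 0.773 and a Spearman's rho of 0.803, and 29 of 34 had the same sign. This is a description across genes, which are not independent replicates, and both responses come from 1 fit with a shared spread. The shared calls, the correlations and the shared signs have no counterpart over all genes beside them. Whether members agreed between the cells more than other genes therefore cannot be told. The difference of the responses itself, G13R minus GFP, was called by limma for 0 of 34 members and for 0% of all genes tested, with 6 members and 1533 genes at an unadjusted p under 0.05. HK2 had the largest value, 1.08 ± 0.31, with a limma adjusted p of 0.278, KDM3A had -0.77 with 0.308, and SLC2A3 had -0.82 with 0.448. The responses of HK2 and SLC2A3 were therefore not shown to differ between the cells. Without GFP serum replicate 1 both were called, at 1.51 and -1.31 with limma adjusted p-values of 0.00392 and 0.0356, and without GFP serum replicate 2 the values were 0.66 and -0.33 with 0.357 and 0.755. Among the enzymes, 15 of 16 differences lay above 0, against 56.1% of all genes.

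G13R and GFP cells were also compared within each condition. In normal growth limma called 0 of 34 members, against 0.0462% of all genes (0.0385% higher and 0.00769% lower in G13R cells), and 13 members and 1968 genes had an unadjusted p under 0.05. The members' median was -0.17 and that of all genes was -0.07, and 25 of 34 members lay below 0, against 64% of all genes. LDHA had -0.38 ± 0.08 (limma adjusted p = 0.11) and PGK1 had -0.33 ± 0.07 (limma adjusted p = 0.117). SLC2A1 had -0.41 ± 0.09 (limma adjusted p = 0.134) and GAPDH had -0.37 ± 0.10 (limma adjusted p = 0.17). Of the 16 enzymes, 13 had both G13R libraries below both GFP libraries, as had 34.3% of all genes tested. ACTB, with 1.93 and 2.27% of the FPKM sum in G13R and 0.48 and 0.497% in GFP normal growth libraries, moved with this comparison, and its part in the result was not tested. Under median-ratio scaling the members' median was -0.09 and that of all genes -0.0053, and under quantile normalization they were -0.03 and -0.0038.

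After serum, limma called 0 of 34 members, against 0.823% of all genes (0.331% higher and 0.492% lower in G13R cells), with 11 members and 2705 genes at an unadjusted p under 0.05. The members' median was -0.06 and that of all genes -0.03. LDHA had -0.35 ± 0.08 (limma adjusted p = 0.0604), HK2 had 0.91 ± 0.22 (limma adjusted p = 0.0713), PFKP had 0.44 ± 0.11 (limma adjusted p = 0.0758) and SLC2A3 had -0.90 ± 0.28 (limma adjusted p = 0.121). Whether members passed the test changed when GFP serum replicate 1 was left out, and not when GFP serum replicate 2 was. Over the alternative settings HK2 ranged from 0.49 to 1.33 and PFKP from 0.32 to 0.56. LDHA ranged from -0.41 to -0.22 and SLC2A3 from -1.39 to -0.41. Both comparisons between G13R and GFP share libraries with the serum comparisons above.

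**Figure D5:**
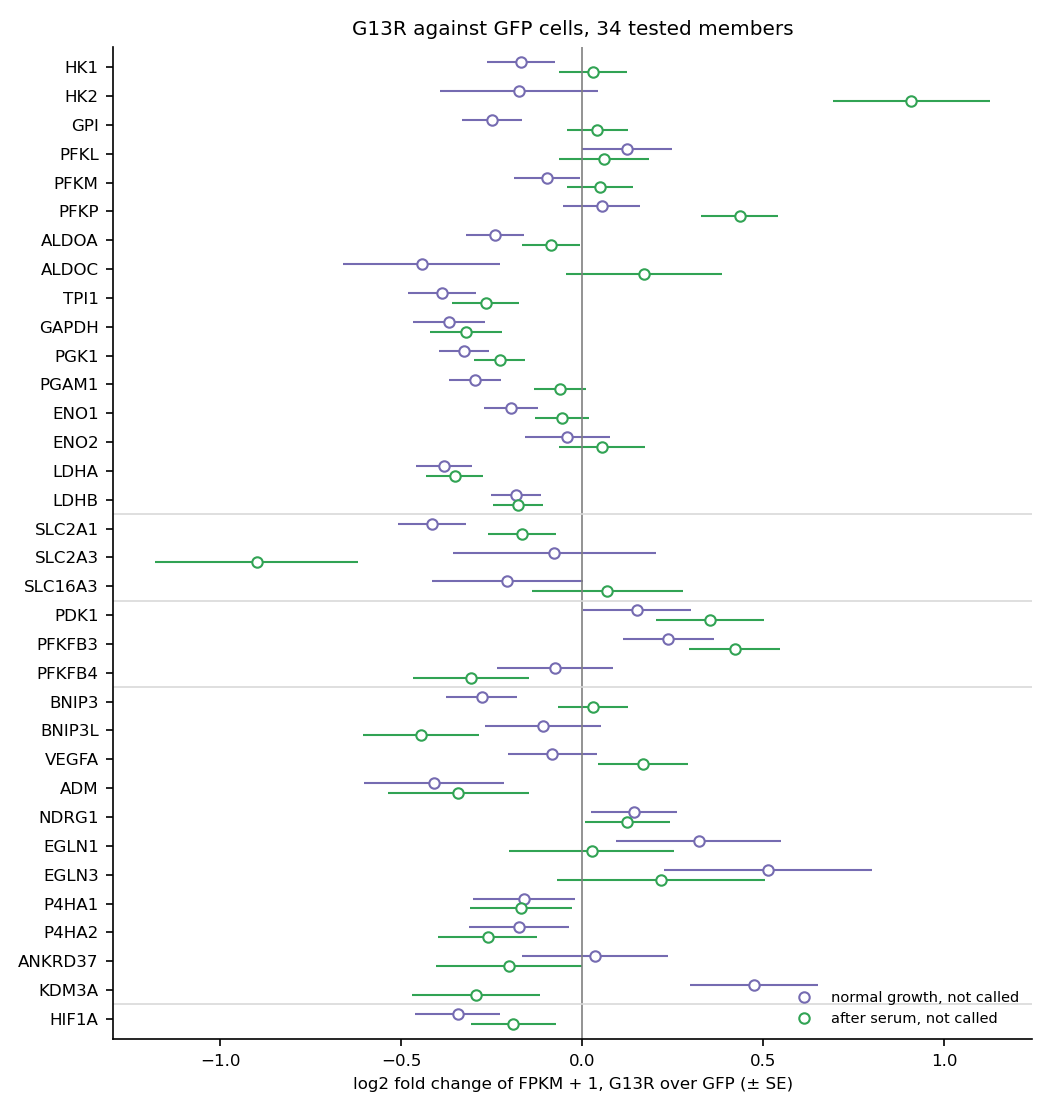
Log2 difference in log2(FPKM + 1) between G13R and GFP cells for each of the 34 members tested, in normal growth and after serum, with bars for the standard error. Open symbols did not pass limma's test, which is all of them, and most normal growth values lie below 0.

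Other genes of sugar metabolism and oxygen sensing were read from 7 lists of 131 genes, of which 105 could be tested. In GFP cells 25 rose and 13 fell, against 14.9% and 15.7% of all genes. In G13R cells 15 rose and 8 fell, against 8.26% and 4.62%. The same shares of all genes apply to the counts of each list below. None of the 10 tested members of the list of other glycolysis enzymes was called in either kind of cell. PKM, the pyruvate kinase of tumour cells, was at 1520 and 1633 FPKM in GFP normal growth and 1607 and 1666 after serum.

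Among the other transporters, 4 of 11 tested rose and 1 fell in GFP cells, and 3 rose in G13R cells. SLC2A12, a facilitative glucose transporter, was at 0.823 and 0.776 FPKM in GFP normal growth and 5.33 and 12.97 after serum, a rise of 2.39 ± 0.31 (limma adjusted p = 0.000578), and rose from 0.761 and 0.606 to 2.53 and 2.72 FPKM in G13R cells, by 1.11. SLC2A10 rose by 1.12 and 1.13 and SLC2A11 rose by 0.80 and 0.90 in GFP and G13R cells. SLC16A1, the lactate and pyruvate carrier MCT1, fell in GFP cells from 70.9 and 74.9 to 44.6 and 28.9 FPKM, by 1.00 on the log2 scale, and was not called in G13R cells.

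The pentose phosphate pathway diverts glucose phosphate toward NADPH and ribose. Of 9 genes, 3 rose and 1 fell in GFP cells, and 4 rose in G13R cells. PGLS, the pathway's lactonase, was at 12.1 and 12.4 FPKM in GFP normal growth and 22.2 and 19.8 after serum, and at 13.01 and 13.4 in G13R normal growth and 20.95 and 18.3 after serum. It rose by 0.73 ± 0.12 in GFP cells and by 0.54 ± 0.12 in G13R cells, without overlap, with limma adjusted p-values of 0.0019 and 0.0192. H6PD, an enzyme of the endoplasmic reticulum, rose by 1.01 and 0.79. RPIA, an isomerase of ribose phosphate, fell in GFP cells from 30.7 and 30.9 to 16.1 and 11.8 FPKM, by 1.10 on the log2 scale.

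Pyruvate enters mitochondria through the pyruvate carrier and pyruvate dehydrogenase. Of 13 tested genes, 4 rose and 2 fell in GFP cells, against 14.9% and 15.7% of all genes. The G13R counts were 2 and 1, against 8.26% and 4.62%. PDP1, the phosphatase that activates pyruvate dehydrogenase, rose by 0.99 and 0.82, from 9.60 and 11.1 to 21.3 and 21.6 FPKM in GFP cells and from 8.48 and 9.16 to 15.8 and 16.9 FPKM in G13R cells. PDK2 and PDK3, kinases with the opposite action, rose by 0.92 and 0.68 in GFP cells. PDHX, a structural subunit, fell by 0.59 and by 0.47 on the log2 scale, and MPC1, a carrier subunit, rose by 0.45 in G13R cells.

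Of 13 tested glycogen and gluconeogenesis genes, 3 rose and 2 fell in each kind of cell. Rising and falling shares of all genes were 14.9% and 15.7% in GFP cells and 8.26% and 4.62% in G13R cells. PGM1, which interconverts glucose phosphates, rose by 0.85 and 0.87, while PGM2 fell by 0.78 and by 0.42 on the log2 scale in GFP and G13R cells. GYS1, glycogen synthase, fell by 0.61 and by 0.57, and PYGL, a glycogen phosphorylase, rose by 0.53 and 0.59.

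Of 16 tested HIF subunits and oxygen sensing genes, 3 rose and 2 fell in GFP cells, against 14.9% and 15.7% of all genes. The G13R counts were 2 and 0, against 8.26% and 4.62%. CITED2, which competes with HIF for its coactivators, was at 26.3 and 25.3 FPKM in GFP normal growth and 61.5 and 115 after serum, a rise of 1.67 ± 0.22 (limma adjusted p = 0.000561), and it went from 25.3 and 25.4 to 45.7 and 46.0 FPKM in G13R cells, a rise of 0.83. ARNT2, a HIF partner, rose by 0.81 and 0.72, and TCEB1, elongin C of the VHL ligase, fell by 0.60 on the log2 scale in GFP cells.

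Among the further HIF targets, 8 of 33 tested rose and 5 fell in GFP cells, and 1 rose and 5 fell in G13R cells. BHLHE40, a repressor of the circadian and hypoxic response, rose by 1.76 ± 0.19 in GFP cells, from 20.96 and 16.9 to 51.97 and 84.1 FPKM. DDIT4, which restrains mTOR, rose there by 1.44 ± 0.23, from 23.4 and 25.4 to 49.0 and 94.4 FPKM. Both were also higher after serum in G13R cells without overlap, but were not called. There BHLHE40 went from 28.3 and 25.4 to 40.3 and 40.6 FPKM, and DDIT4 from 26.8 and 27.0 to 37.1 and 42.3 FPKM. TFRC, the transferrin receptor, fell by 1.20 and by 0.86 on the log2 scale, from 131 and 131 to 62.6 and 50.3 FPKM in GFP cells and from 120 and 123 to 66.4 and 67.05 FPKM in G13R cells. ZNF395 rose by 0.71 in GFP cells and by 0.77 in G13R cells, and both calls were lost under several alternatives. HMOX1, heme oxygenase, was the only 1 of the 105 genes called between G13R and GFP cells, after serum. In that comparison 0.823% of all genes were called. HMOX1 had 0.93 ± 0.15 (limma adjusted p = 0.0376). It had 105 and 94.7 FPKM in G13R against 61.7 and 43.4 in GFP serum libraries. HMOX1 lost the call when any 1 of GFP serum replicate 2, G13R serum replicate 1 or G13R serum replicate 2 was left out. The call was also lost without the filter, without the trend and with only the compared libraries. Of the other calls in these lists, 21 of 38 in GFP cells and 4 of 23 in G13R cells were kept under every alternative (PDP1 and TFRC among the latter). SLC2A10, SLC2A11, PDK2, PDK3, GYS1, PYGL and ARNT2 in GFP cells, and all other genes of these lists named for G13R cells, lost the call when at least 1 library was left out, with limma adjusted p-values up to 0.262 under the alternatives.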

How the data were processed

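The deposited FPKM table of 22504 genes and 8 libraries was made by the authors; TopHat2 2.0.13 and Cufflinks 2.2.1, and the builds hg19 and BDGP5, are named in the submitters' processing notes. Read depth is unknown and reads were not recovered, so no counting intervals were computed. Gene starts counted from 0 and were shifted by 1. Columns marked C were read as normal growth. limma 3.58.1 was run on log2(FPKM + 1) (R 4.3.3, intensity trend, 4 residual degrees of freedom, all 8 libraries sharing a spread) on genes with at least 1 FPKM in 2 libraries, and p-values were adjusted over all 12996 genes by Benjamini-Hochberg. Fold changes on this scale understate changes of low genes. The fitting code was tested on simulated data. Settings varied were the pseudocount (0.1), the filter (none, or 5 FPKM), median-ratio and quantile scaling, no trend, a replicate block, only the compared libraries, and leaving out each library. Named genes were all members and, per list and serum comparison, up to 3 called genes with the largest change, plus ACTB. Some genes that the rule selects are not reported here. PKM and HMOX1 were added after seeing their values. Members, lists and tests were chosen with earlier results of these data known. Promoter windows were RefSeq's, and whether reads were counted by strand was not stated in the labels, so overlapping and antisense genes are uncertain.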

Additional observations from a re-analysis of the deposited data

How the results depend on the processing

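Among called members no sign reversed under any alternative tried. The counts of members below have no share of all genes under the same setting beside them. They show how members' calls depend on the setting, and not whether members differ in this from other genes. In GFP cells the 20 calls became 10 without the trend and 11 with only the compared libraries, and 8 to 16 when 1 library was left out. In G13R cells the 9 calls became 4 without the filter and 5 without the trend, and 1 to 4 when 1 library was left out. For G13R against GFP cells in normal growth, the 0 calls became 1 under quantile normalization and 4 with the replicate number as a block, and stayed at 0 to 0 when 1 library was left out. After serum the 0 calls became 1 with the filter at 5 FPKM, 1 under quantile normalization and 4 with the block, and 0 to 8 when 1 library was left out. For the difference of the responses, the 0 calls became 1 under quantile normalization and 0 to 2 when 1 library was left out. The call under quantile normalization was GAPDH in all 3. The block gave 22 calls for serum in GFP cells and 10 in G13R cells. With only the compared libraries, 0 calls were lost for serum in G13R cells and 3 were gained, BNIP3L, HK2 and SLC2A3. Over the 12996 genes tested, the difference between replicates 1 and 2 correlated at only 0.017 to 0.121 between groups. The summed level of the glycolytic enzymes was still higher in replicate 2 than in replicate 1 in every group. It was 10170 and 10886 FPKM in GFP normal growth and 8415 and 9261 after serum. In G13R cells it was 8143 and 8956 FPKM in normal growth and 7414 and 7833 after serum. Whether the replicate number marks a shared batch was not tested. Calls over all genes in the G13R serum comparison were 64.1% higher, and 53.1% under median-ratio scaling. Members split 6 higher and 14 lower in GFP cells, and 7 and 10 under quantile normalization; in G13R cells 4 and 5, and 3 and 6 under median-ratio scaling. The cause of these shifts was not tested. Depth is unknown, so precision at low FPKM could not be stated.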
